A study of Mus musculus with 18 samples.

Results

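The genes described here are 19 cytosolic aminoacyl-tRNA synthetases and 13 genes of the ATF4 branch of the stress response, 32 of the 50600 genes in the count table. They were chosen by name. The ATF4 genes are 5 transcription factors (Atf4, Atf5, Ddit3, Cebpb and Cebpg) and 8 effectors (Asns, Chac1, Trib3, Sesn2, Eif4ebp1, Nupr1, Slc7a11 and Xpot). Each gene was found once by its Ensembl identifier.

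Aminoacyl-tRNA synthetases join each amino acid to its tRNA and thereby supply the ribosome. When amino acids run short, or when misfolded proteins accumulate, eIF2 kinases phosphorylate the initiation factor eIF2, general translation slows, and translation of ATF4 mRNA increases. ATF4 then activates genes for amino acid synthesis and transport, many of the synthetases, and feedback regulators such as Trib3, and in growing lymphocytes the same genes also respond to signals that promote anabolism, among them mTORC1.

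RNA-seq was performed on Foxp3+ Tregs sorted from 18 C57BL/6 mice, 1 library per mouse, to compare Tregs with and without CD25, the α chain of the IL-2 receptor encoded by Il2ra. Thymic CD25 KO Tregs (n = 5) came from “cured” CD25 flox/Foxp3-YFP/Cre mice aged 3 to 4 weeks, which had received WT splenocytes intravenously as neonates, and in which Cre is made from the Foxp3 locus. Thymic WT Tregs (n = 5) came from Foxp3/RFP reporter mice of the same age. Splenic CD25 KO Tregs (n = 4) were taken 10 to 14 days after tamoxifen, given at 7 to 10 weeks of age to mice of the genotype CD25 flox/Foxp3eGFP-Cre-ERT2/R26Y, and splenic WT Tregs (n = 4) came from reporter controls at the same interval after tamoxifen. Thymic Tregs of the 2 genotypes therefore differ in their Foxp3 reporter allele and in the neonatal transfer as well as in Il2ra. Tissue, mouse model, age and the date carried by the library names change together between thymus and spleen and cannot be told apart.

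Thymic libraries held 17239774 to 23993674 counts, and splenic libraries held 25258341 to 32639570. Levels are given as CPM after TMM scaling, and 3 counts, the smallest level regarded as detectable, equalled up to 0.163 CPM in the thymus and, in splenic libraries, up to 0.129 CPM. Il2ra was at 524 to 682 CPM in thymic WT and 488 to 539 CPM in splenic WT mice, and at 168 to 208 CPM in splenic CD25 KO mice. In thymic CD25 KO mice 5, 3 and 1 it was at 95.9, 96.1 and 105 CPM. Mice 2 and 4 were at 280 and 234 CPM, apart from the other 3, and thymic results are also given without them. The paper reports that Il2ra mRNA was lowered and not lost in CD25 KO Tregs. It states that this mRNA lacked exon 4, shown for splenic Tregs, and takes this as loss of functional CD25. Counts per gene take in such mRNA too, so they do not show how complete the deletion was in any mouse. Foxp3, Ikzf2, Ctla4, Cd4, Cd3e and Cd3d, which define the sorted cells, were all well above the detectable level in each group, with group means of 226 to 503 CPM for Foxp3. Markers of other cells were low. B cell markers summed to 10.2 to 23.9 CPM, myeloid markers to 6.78 to 30.8 CPM and NK cell markers to 2.84 to 16.2 CPM over the 18 mice, with Klra8 at 0 in every group, whereas markers of immature thymocytes summed to 40.0 to 172 CPM in thymic and 8.32 to 11.1 CPM in splenic mice and erythroid markers to 4.51 to 39.9 CPM. In bulk samples of this kind, fewer cells of a type and less RNA per cell cannot be told apart.

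In WT Tregs, the synthetases were expressed without exception, from 30.4 CPM for Cars to 153 CPM for Eprs over the thymic WT mice. Per kilobase of annotated exon, the mean level in thymic WT mice ranged from 4.86 CPM for Cars, the cysteine enzyme, and 5.65 CPM for Yars, the tyrosine enzyme, to 21.4 CPM for Kars, the lysine enzyme, and 23.2 CPM for Vars, the valine enzyme. Atf4 mRNA was at 33.6 CPM per kilobase in thymic WT and 44.9 in splenic WT mice, above every synthetase in the same group. Of the effectors, the tRNA export receptor Xpot was within the range of the synthetases at 10.9 CPM per kilobase, and the others were below Cars. In thymic WT mice Sesn2, a brake on mTORC1, was at 4.20 CPM per kilobase, Eif4ebp1, a repressor of cap-dependent translation, at 2.29, Trib3, a pseudokinase that inhibits ATF4, at 1.18, and Asns, asparagine synthetase, at 0.345. Chac1, which degrades glutathione, and Nupr1, a stress-induced chromatin factor, were hardly detected. Nupr1 had at most 1 count in any library, and Chac1 had 0 counts in all thymic WT libraries and at most 9 in any library. Neither was tested, so 30 of the 32 genes entered the thymic test and 29 the splenic test, where Slc7a11, the cystine transporter, also dropped out.

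In the thymus, synthetase transcripts were lower in CD25 KO than in WT Tregs as a group, by small amounts. All 19 log2 fold changes of CD25 KO against WT were below 0, from -0.39 for Vars to -0.03 for Eprs, with a median of -0.215. Over all 16986 genes tested the median was -0.00224, and 50.3% of the genes were below 0. With p-values from edgeR adjusted by Benjamini-Hochberg over all genes, 1 synthetase (Rars) passed FDR < 0.01, the threshold used here, and 12 passed FDR < 0.05. In the background of all genes, 2.99% were lower at FDR < 0.01 and 10.9% were lower at FDR < 0.05. Under upper-quartile scaling, and after removal of a trend with GC content, 18 of the 19 remained below 0, with 11 and 9 passing FDR < 0.05. Of all genes, 3931 and 2681 passed FDR < 0.05 in either direction in these fits, in place of 3951. The count of 12 moved with single mice, to 3 without WT mouse 2, to 6 without WT mouse 3 or WT mouse 5, and to 7 without CD25 KO mouse 1 or CD25 KO mouse 3. Calls over all genes fell in the same fits. Those passing FDR < 0.05 in either direction numbered 2169, 2449, 2626, 2914 and 2692, in that order, in place of 3951.

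**Figure D1:**
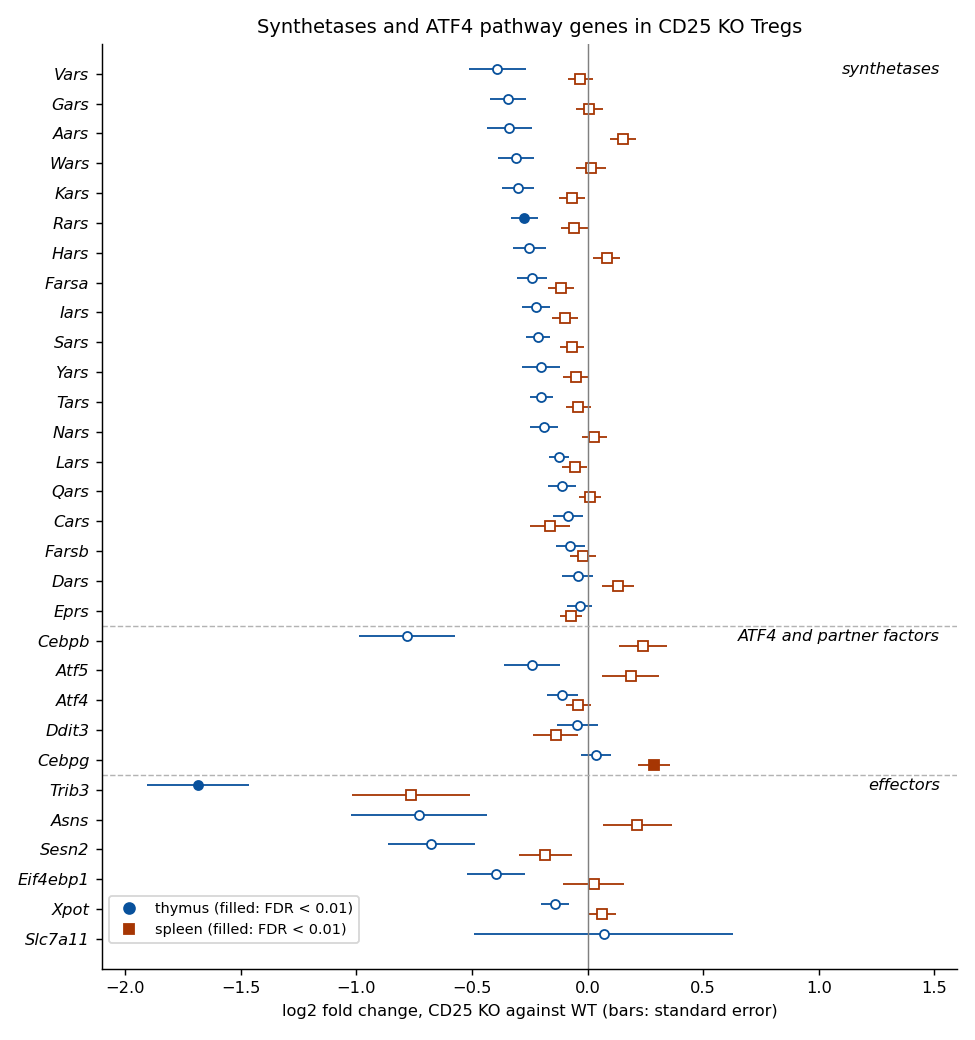
Log2 fold change of CD25 KO against WT (x axis, with standard error) for each of the 30 genes tested, in thymus (blue circles) and spleen (orange squares), by role. In the thymus every synthetase lies left of 0 and Trib3 lies farthest left at -1.68, whereas in the spleen the synthetases lie on both sides of 0, between -0.16 and 0.15.

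Rars, the arginine enzyme at chr11:35808381-35834506 on the minus strand of GRCm38, was at 48.5, 49.4, 50.6, 47.3 and 50.7 CPM in thymic WT mice 1 to 5. In thymic CD25 KO mice 1 to 5 it was at 37.5, 44.6, 40.8, 38.3 and 40.4 CPM. Every CD25 KO mouse lay below every WT mouse, and CD25 KO mouse 2 was nearest to the WT mice. The log2 fold change was -0.27 ± 0.06 (SE), a fold of 1.21, with an adjusted p of 0.00973 by edgeR. That call sits at the threshold: it was kept in 1 of 10 fits that each left out 1 mouse, the fit without CD25 KO mouse 2, where the adjusted p was lowest at 0.00542, and it was lost without any other single mouse, with adjusted p up to 0.0312. In the spleen Rars was at 47.1, 50.1, 53.3 and 51.9 CPM in WT and 45.8, 50.6, 48.1 and 49.9 CPM in CD25 KO mice, overlapping groups with a log2 difference of -0.06 (95% interval -0.17 to 0.06).

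The synthetases next to that threshold in the thymus were Gars, the glycine enzyme, at a log2 fold change of -0.34 with an adjusted p of 0.0104, and Kars at -0.30 with 0.0108. The largest estimate, that of Vars, had an adjusted p of 0.0389. Vars was at 120 to 140 CPM in WT mice, at 79.9, 86.1 and 82.2 CPM in CD25 KO mice 1, 3 and 5, and at 121 CPM in both CD25 KO mice 2 and 4. For Vars the 2 CD25 KO mice with higher Il2ra CPM thus lay within the WT range. Dars, Eprs, Farsb and Cars, the enzymes for aspartate, glutamate and proline, phenylalanine (β subunit) and cysteine, had log2 fold changes of -0.04, -0.03, -0.07 and -0.08, and none of the 4 passed FDR < 0.05. After the GC correction Cars was at 0.02, and Dars was at -0.264 with an adjusted p of 0.00605, one of 3 members then past FDR < 0.01, with Trib3 and Rars. In that fit 457 of all 16986 genes were lower at FDR < 0.01.

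For 11 of the 19 synthetases (Farsa, Gars, Hars, Iars, Kars, Lars, Nars, Rars, Sars, Tars and Wars) all 5 thymic CD25 KO mice lay below all 5 WT mice, whereas 9.17% of all genes tested had this arrangement. No synthetase had the opposite one. Taken mouse by mouse, 17 to 19 of the 19 synthetases were below the WT mean in each CD25 KO mouse. The median difference from the WT mean was -0.26, -0.27 and -0.25 on the log2 scale in CD25 KO mice 1, 3 and 5, and -0.142 and -0.145 in mice 2 and 4. The same median over all genes tested lay between -0.0391 and 0.00805 in these mice.

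**Figure D2:**
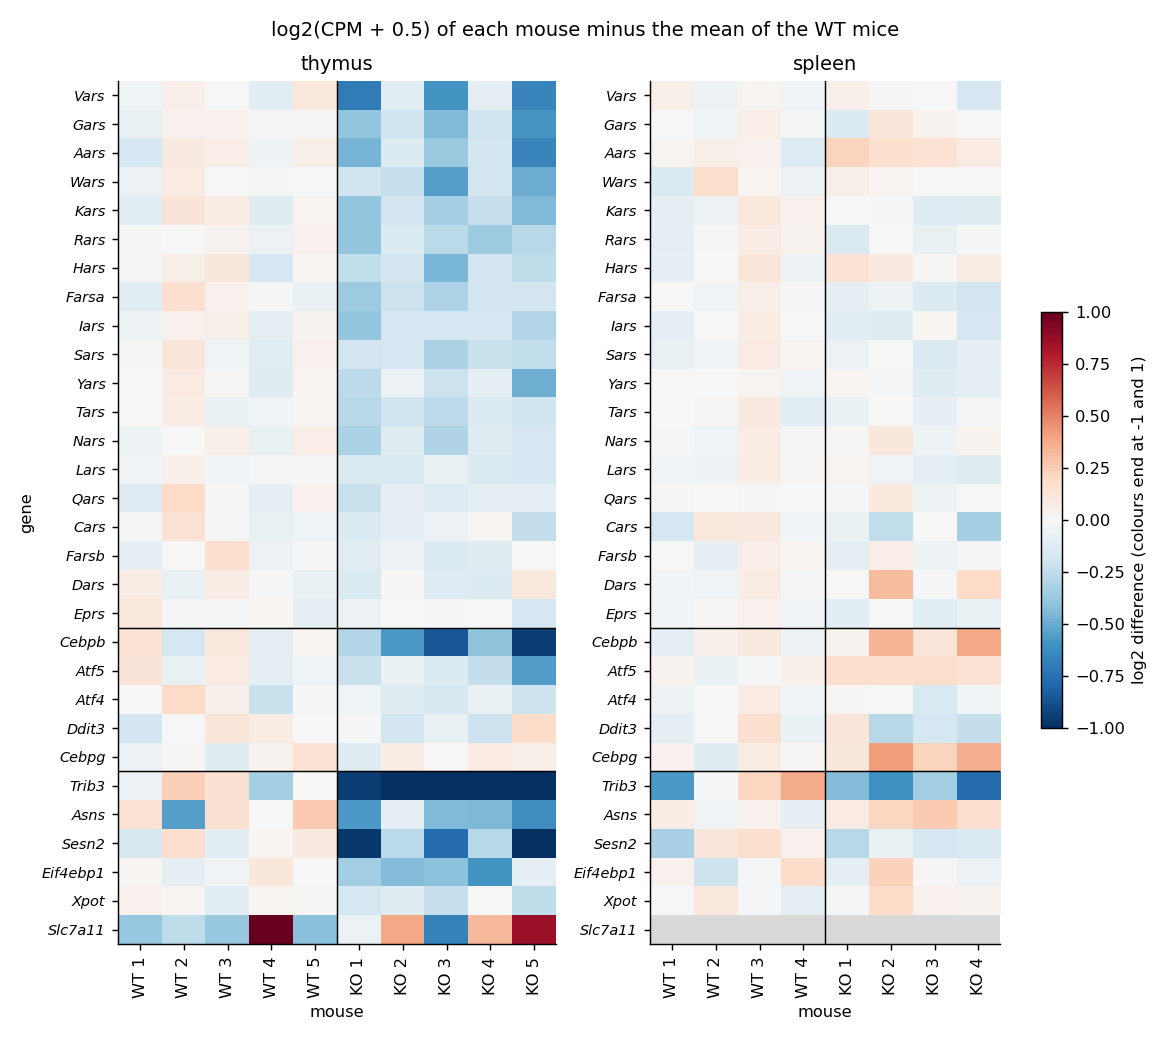
Each cell is the log2(CPM + 0.5) of one gene (rows, by role) in one mouse (columns) minus the mean of the WT mice of the same tissue, with the colour scale ending at -1 and 1, and grey where a gene was not tested. In the thymus the synthetase block is mostly blue in all 5 CD25 KO columns and palest in mice 2 and 4, and in the spleen no such block appears.

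Other properties of the thymic libraries moved alongside. The mean level of 13 cell cycle genes, on a log2(CPM + 0.5) scale, was 5.94 to 6.73 in WT mice, 5.08, 5.12 and 4.71 in CD25 KO mice 1, 3 and 5, and 6.46 and 6.34 in CD25 KO mice 2 and 4. On the same scale the mean of the 19 synthetases was 5.96 to 6.09 in WT mice, 5.74, 5.75 and 5.73 in CD25 KO mice 1, 3 and 5, and 5.89 and 5.88 in mice 2 and 4. Genes induced by heat and handling had a mean level of 4.04 to 5.87 in WT and 3.92 to 4.33 in CD25 KO mice, and among them the chaperone genes Hspa1a and Hspa1b had log2 fold changes of -4.98 and -4.31. Log2 fold changes also ran with the GC content of genes (Spearman's rho -0.400 across 16945 genes in the thymus and -0.166 across 17423 in the spleen, where genes are not independent replicates). The median GC content was 49.4% for the synthetases, 49.9% for the ATF4 genes and 49.0% for all genes, and single synthetases ranged from 41.2% for Dars to 60.9% for Vars. After the GC correction the thymic log2 fold change of Aars was -0.218 (adjusted p = 0.0813), in place of -0.34. The part of proliferation, handling and GC content in the synthetase difference was not tested beyond these values and the GC correction above.

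**Figure D3:**
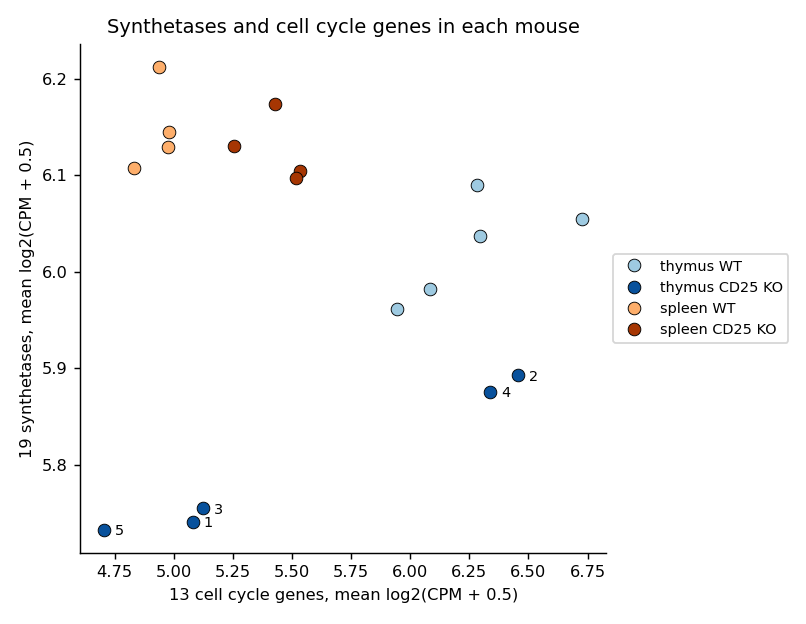
Mean log2(CPM + 0.5) of the 19 synthetases (y axis) against that of 13 cell cycle genes (x axis), 1 point per mouse, with thymic CD25 KO mice numbered. Thymic CD25 KO mice 2 and 4 lie at 6.46 and 6.34 on the x axis and at 5.89 and 5.88 on the y axis, where the lowest thymic WT mouse is at 5.96, and the splenic mice of both genotypes lie between 6.10 and 6.21 on the y axis.

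Without thymic CD25 KO mice 2 and 4, 8 of the genes described here were lower at FDR < 0.01 in the thymus, in place of 2, while the share of all genes lower was 7.07%, in place of 2.99%. These were Vars (log2 fold change -0.65), Aars (-0.49), Gars (-0.47), Wars (-0.40), Kars (-0.385) and Rars (-0.31) among the synthetases, and Trib3 (-1.67) and Sesn2 (-1.05) among the effectors. The 3 mice left are those with lower Il2ra CPM and a lower cell cycle level. Mice 2 and 4 were set apart by values seen in these same data. They were also the CD25 KO mice nearest to the WT mean in the synthetases (medians of -0.142 and -0.145), so more calls without them carry no separate support.

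Not every synthetase is known as an ATF4 target. In the thymus, the 12 synthetases described in the literature as induced by ATF4 had a median log2 fold change of -0.21 (8 of 12 lower at FDR < 0.05), and the 7 others a median of -0.24 (4 of 7 lower at FDR < 0.05). Those 7 of the 19 synthetases described here that are held in the multi-synthetase complex had a thymic median of -0.12, with 3 of 7 lower at FDR < 0.05, against 10.9% of all genes. Over the mice of each group, thymic WT mice had a mean log2(CPM + 0.5) level of 6.06 for the 12 ATF4-induced and 5.964 for the 7 other synthetases, and thymic CD25 KO mice of 5.82 and 5.765. No test was run of the difference between these classes, and the sum of the 2 counts, 12 of 19, changed with single mice as given above.

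For 24 of the 32 genes the RefSeq table on GRCm38.p6 held a start site, and the 250 bases before it were searched on both strands for the C/EBP-ATF response element in the form TGATGNAA, at which ATF4 binds with C/EBP partners, and for the CRE core TGACGTCA. The first was present in 7 of 24 members (29.2%), 3 of 12 synthetases and 4 of 12 ATF4 genes, in 1056 of 27025 genes in the table (3.91%), and in 2.49% of the 11126 tested genes with a window. The CRE core was present in 0 of 24 members, 1.77% of genes in the table and 2.92% of tested genes. The members with a match were Aars, Gars, Tars, Asns, Chac1, Nupr1 and Slc7a11. Shown here are the 3 synthetases with a match, and Asns as the best known target. Each sequence is read 5′ to 3′ on the strand of the gene and ends at the base before its start, with the match in capitals, and lies at chr8:111033592-111033841 on the plus strand for Aars, chr6:55037751-55038000 on the plus strand for Gars, chr15:11399659-11399908 on the minus strand for Tars and chr6:7693210-7693459 on the minus strand for Asns.
Aars: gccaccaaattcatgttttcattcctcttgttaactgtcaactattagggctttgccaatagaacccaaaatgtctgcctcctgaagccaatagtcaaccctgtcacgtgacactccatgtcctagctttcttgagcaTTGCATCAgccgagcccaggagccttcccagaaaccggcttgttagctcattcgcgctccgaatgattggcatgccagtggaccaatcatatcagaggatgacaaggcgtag
Gars: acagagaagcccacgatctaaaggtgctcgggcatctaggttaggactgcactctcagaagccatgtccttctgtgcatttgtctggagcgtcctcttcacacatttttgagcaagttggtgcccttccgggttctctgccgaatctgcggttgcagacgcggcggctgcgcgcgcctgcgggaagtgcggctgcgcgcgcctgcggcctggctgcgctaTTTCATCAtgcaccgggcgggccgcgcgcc
Tars: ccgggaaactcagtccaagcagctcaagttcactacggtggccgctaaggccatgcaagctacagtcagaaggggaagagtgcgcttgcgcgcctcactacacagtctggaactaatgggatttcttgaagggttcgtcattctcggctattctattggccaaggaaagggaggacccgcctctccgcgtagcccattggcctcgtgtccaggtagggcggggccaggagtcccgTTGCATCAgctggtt
Asns: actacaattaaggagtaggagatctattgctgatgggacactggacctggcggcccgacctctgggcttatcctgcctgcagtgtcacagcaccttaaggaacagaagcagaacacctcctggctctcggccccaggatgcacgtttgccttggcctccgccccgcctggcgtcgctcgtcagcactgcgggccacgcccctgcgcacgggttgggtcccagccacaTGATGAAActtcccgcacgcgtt
The match begins 112 bases before the start in Aars, 30 in Gars, 15 in Tars and 23 in Asns, on the reverse strand in the synthetases and on the forward strand in Asns. Tars, the threonine enzyme, carries its match closest to the start. Trib3, Atf4, Atf5, Ddit3, Cebpb, Cebpg, Sesn2 and Xpot had neither motif in this window, which says only that these letters are not in these 250 bases.

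Atf4 mRNA itself did not pass the test in either tissue. It was at 78.5, 90.4, 81.6, 67.4 and 78.4 CPM in thymic WT mice and at 76.5, 72.5, 70.6, 75.3 and 68.4 CPM in thymic CD25 KO mice. In the spleen it was at 102, 106, 112 and 104 CPM in WT and 107, 106, 95.2 and 104 CPM in CD25 KO mice. The genotypes overlapped in both tissues, with a thymic log2 difference of -0.11 (95% interval -0.24 to 0.02) and a splenic one of -0.04 (-0.14 to 0.07). Under the GC correction the thymic value was 0.01. ATF4 is controlled mainly through translation, which these libraries do not measure.

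Cebpb, a C/EBP factor that pairs with ATF4, was lower in thymic CD25 KO mice without passing the threshold. It was at 2.13, 1.62, 2.07, 1.74 and 1.92 CPM in WT and at 1.45, 1.11, 0.817, 1.31 and 0.735 CPM in CD25 KO mice, from 38 to 46 counts and 14 to 29 counts per library. All 5 CD25 KO mice lay below all WT mice, and the log2 fold change was -0.78 ± 0.21 (SE) with an adjusted p of 0.0202 by edgeR. In the spleen it was at 9.15, 10.1, 10.4 and 9.38 CPM in WT and 10.0, 12.5, 10.6 and 12.9 CPM in CD25 KO mice, with only the lowest CD25 KO mouse inside the WT range (log2 fold change 0.24, adjusted p = 0.130). Tmem189, on the opposite strand, overlaps 20.7% of the exonic bases of Cebpb (chr2:167688915-167690418, plus strand), and reads of the 2 cannot be told apart without strand information. Cebpb is abundant in myeloid cells, whose summed markers were at 14.0 to 18.4 CPM in splenic WT and 18.4 to 24.0 CPM in splenic CD25 KO mice, and at 8.07 to 30.8 CPM and 6.78 to 16.7 CPM in thymic WT and CD25 KO mice. In the spleen 3 of the 7 myeloid markers had a higher mean in CD25 KO mice and 4 a lower one, and the sum followed Lyz2 (6.18 and 12.6 CPM, log2 fold change 1.03), with Csf1r at 6.45 and 5.48 CPM and Cd14 at 0.197 and 0.0703 CPM. Their part in the levels of Cebpb was not tested.

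**Figure D4:**
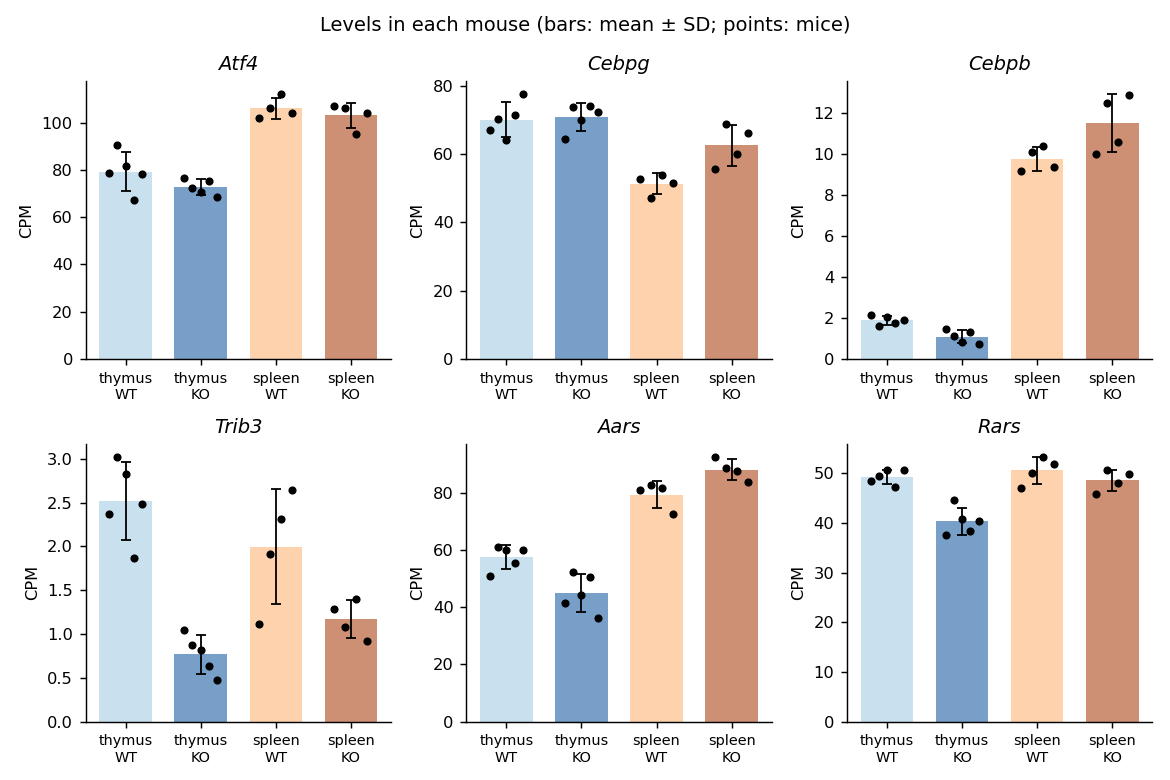
CPM of 6 genes in every mouse (points) with mean and SD (bars and error bars) for the 4 groups. Trib3 and Rars of all 5 thymic CD25 KO mice lie below those of all thymic WT mice, Cebpg of all 4 splenic CD25 KO mice lies above that of the splenic WT mice, and Cebpb is at 9.76 CPM in splenic WT against 1.89 CPM in thymic WT mice.

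Cebpg, another C/EBP partner of ATF4 (chr7:35046422-35056573, minus strand), rose in splenic CD25 KO Tregs. It was at 52.8, 47.1, 54.0 and 51.6 CPM in WT and 55.5, 68.8, 59.9 and 66.2 CPM in CD25 KO mice. The groups did not overlap, the log2 fold change was 0.29 ± 0.07 (SE), a fold of 1.22, and the adjusted p was 0.00928 by edgeR. This was the 1 member higher at FDR < 0.01 in the spleen, where 5.90% of all 17463 genes tested were higher and 3.55% lower. The call was lost in 7 of 8 fits that left out 1 splenic mouse, all but that without CD25 KO mouse 1, with adjusted p up to 0.0409, and under upper-quartile scaling, the fit of all 18 samples and the GC correction. Summed NK cell markers were also higher in splenic CD25 KO mice, at 10.9 to 16.2 CPM against 4.71 to 8.02 CPM in WT mice, through Eomes (4.49 and 9.05 CPM in WT and CD25 KO mice) and Klrb1c (1.15 and 4.27 CPM), with Ncr1 and Klra8 at 0 in both groups, and their part in the difference of Cebpg was not tested. In the thymus Cebpg was at 66.9, 70.3, 64.1, 71.5 and 77.5 CPM in WT and 64.3, 73.7, 70.0, 74.2 and 72.4 CPM in CD25 KO mice, with a log2 difference of 0.03 (95% interval -0.09 to 0.16).

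Atf5, a related factor, was at 6.88, 5.91, 6.65, 5.85 and 6.06 CPM in thymic WT and 5.30, 5.95, 5.66, 5.23 and 4.10 CPM in thymic CD25 KO mice. In the spleen the values were 4.07, 3.77, 3.90 and 4.14 CPM in WT and 4.53, 4.55, 4.55 and 4.43 CPM in CD25 KO mice. The thymic groups overlapped and the splenic groups did not, with every CD25 KO mouse above every WT mouse, yet neither difference passed (log2 fold change -0.24 with adjusted p = 0.164, and 0.19 with 0.340, by edgeR). Ddit3, which encodes the pro-apoptotic factor CHOP, was at 19, 21.7, 23.8, 23.0 and 21.8 CPM in thymic WT and 21.5, 19.2, 20.7, 18.8 and 24.8 CPM in thymic CD25 KO mice. Splenic Ddit3 was at 17.1, 18.3, 20.6 and 17.5 CPM in WT and 20.1, 15.0, 16.2 and 15.5 CPM in CD25 KO mice. Its groups overlapped in both tissues, with log2 differences of -0.04 (95% interval -0.22 to 0.13) and -0.14 (-0.33 to 0.05).

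Among the effectors, Trib3 (chr2:152337422-152344032, minus strand) fell in the thymus and had the largest log2 fold change of all members tested in either tissue. It was at 2.37, 3.02, 2.83, 1.87 and 2.48 CPM in WT mice 1 to 5 and at 1.05, 0.876, 0.817, 0.631 and 0.473 CPM in CD25 KO mice 1 to 5, from 41 to 71 and 9 to 21 counts. Every CD25 KO mouse, including mice 2 and 4, was below every WT mouse. The log2 fold change was -1.68 ± 0.22 (SE), a fold of 3.22, with an adjusted p of 0.000942 by edgeR. The call was kept in all 10 fits without 1 mouse, with log2 fold changes of -1.81 to -1.56 and adjusted p of 0.00128 to 0.00377. It was also kept in every other alternative in which Trib3 was tested. A filter of at least 10 counts in every sample removed it. In the spleen Trib3 was at 1.12, 1.91, 2.31 and 2.64 CPM in WT and 1.29, 1.08, 1.40 and 0.918 CPM in CD25 KO mice, overlapping through the lowest WT mouse, with a log2 fold change of -0.77 and an adjusted p of 0.0506. Without splenic WT mouse 1 the splenic log2 fold change was -0.97 and passed the threshold with an adjusted p of 0.0082.

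Of the other effectors in the thymus, Sesn2 was at -0.68 on the log2 scale (adjusted p = 0.0239) and Eif4ebp1 at -0.40 (adjusted p = 0.0394), both with all CD25 KO mice below all WT mice. Sesn2 was at 12.9 to 16.4 CPM in WT mice, at 7.20, 8.33 and 5.57 CPM in CD25 KO mice 1, 3 and 5, and at 12.0 and 11.9 CPM in mice 2 and 4. The spread of Sesn2 among CD25 KO mice thus followed the same split as Vars. Asns, with 8 to 28 counts per thymic library, was at -0.73 (adjusted p = 0.0894) and its groups overlapped through WT mouse 2. Xpot was at -0.14 (adjusted p = 0.112). Slc7a11 was at 0.07 (95% interval -1.03 to 1.17), with 3.29 CPM in WT mouse 4 against 0.555 to 0.680 CPM in the other WT mice.

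Counted together in the thymus, 9 of the 11 ATF4 genes tested were below 0, with a median log2 fold change of -0.24, 1 lower at FDR < 0.01 and 4 lower at FDR < 0.05, against 2.99% and 10.9% of all genes. The count of 4 was 2 without CD25 KO mouse 1, CD25 KO mouse 3 or WT mouse 5. In those fits 2914, 2692 and 2626 of all genes passed FDR < 0.05 in either direction, in place of 3951. Over all 30 members tested, 2 were lower (Rars and Trib3) and 0 higher at FDR < 0.01 by edgeR, where 2.99% of all genes were lower and 3.17% higher. All CD25 KO mice lay below all WT mice for 15 of 30, against 9.17% of all genes. At an unadjusted p under 0.05 the numbers were 20 lower and 0 higher, where 18.5% of all genes were lower, and DESeq2 called 11 lower and 0 higher, where it called 7.64% of all genes lower.

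In the spleen the synthetases lay on both sides of 0. Of 19, 12 were below 0 and 7 above (16 below 0 under upper-quartile scaling, with a median of -0.07), with a median log2 fold change of -0.04, from -0.16 for Cars to 0.15 for Aars, and over all genes the median was -0.00648. By edgeR 0 passed FDR < 0.01 in either direction, 1 (Aars) had an unadjusted p under 0.05, where 16.4% of all genes were higher at that level, and DESeq2 called 0. After the GC correction Aars passed at 0.203 with an adjusted p of 0.00998. The 10 ATF4 genes tested had a median of 0.0455, with 6 above 0, and without CD25 KO mouse 2 the median was -0.0153. Among the 29 members tested, 4 had all CD25 KO mice above all WT mice (Aars, Atf5, Cebpg and Asns) and 1 had all below (Farsa), 5 in all, where 20.4% of all genes were separated one way or the other. At FDR < 0.01, 0 members were lower by edgeR, 1 was lower at an unadjusted p under 0.05, as were 13.6% of all genes, and DESeq2 called 0. In these mice the 13 cell cycle genes were at 4.83 to 4.98 in WT and 5.25 to 5.53 in CD25 KO mice on the log2(CPM + 0.5) scale. The synthetase level was 6.11 to 6.21 in splenic WT and 6.10 to 6.17 in splenic CD25 KO mice. The relation between cell cycle and synthetase levels was not tested.

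The difference between the tissues was tested directly, as the splenic minus the thymic log2 fold change in 1 fit of all 18 mice, which shares its mice with the comparisons within tissues. It was above 0 for 27 of 30 members, with a median of 0.23. Over all 18686 genes the median was -0.00652. Aars and Cebpb passed FDR < 0.01 with a positive difference, where 4.50% of all genes did, and 0 members passed with a negative one, where 2.49% of all genes did. At an unadjusted p under 0.05 there were 18 positive and 0 negative differences, where 17.4% of all genes had a positive one, and DESeq2 called 4 positive and 0 negative, where it called 7.94% of all genes positive. After the GC correction the difference also passed for Dars, at 0.358 with an adjusted p of 0.00666.

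Aars, the alanine enzyme (chr8:111033144-111057664, plus strand), was at 51.0, 61.1, 60.1, 55.5 and 59.9 CPM in thymic WT and 41.5, 52.1, 44.3, 50.6 and 36.1 CPM in thymic CD25 KO mice. In the spleen it was at 80.7, 82.5, 81.4 and 72.4 CPM in WT and 92.4, 88.6, 87.4 and 83.7 CPM in CD25 KO mice. Thymic CD25 KO mice were all below the WT mean but overlapped the WT range through mouse 2, and splenic CD25 KO mice were all above the WT range. The log2 fold changes were -0.34 (adjusted p = 0.0270) in the thymus and 0.15 (adjusted p = 0.0723) in the spleen, and their difference was 0.51 ± 0.12 (SE) with an adjusted p of 0.00701 by edgeR. That call was lost in 13 of 18 fits that left out 1 mouse, with differences of 0.44 to 0.57 and adjusted p up to 0.0195. It was kept without thymic WT mouse 1 or 4 and without thymic CD25 KO mouse 2, 4 or 5. Exosc6, on the same strand, overlaps 14.3% of the exonic bases of Aars. For Cebpb the difference was 1.03 ± 0.22 (SE), a fold of 2.04, with an adjusted p of 0.00312 by edgeR, and it was kept in all 18 fits without 1 mouse, at 0.92 to 1.14.

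Gars, Hars, Nars, Wars and Asns had differences of 0.37, 0.35, 0.23, 0.34 and 0.96, which passed FDR < 0.05 and not FDR < 0.01, so that 7 members passed FDR < 0.05, where 9.82% of all genes had a positive difference. The synthetases had a median difference of 0.175 and the ATF4 genes of 0.44, with 1 of each passing FDR < 0.01. For Atf4 mRNA the difference was 0.08 (95% interval -0.10 to 0.27).

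Between WT mice of the 2 tissues, 9 of 30 members were higher and 5 lower in the spleen at FDR < 0.01, against 21.0% and 19.5% of all genes. Higher in splenic WT Tregs were Aars (log2 difference 0.46), Vars (0.55), Dars, Nars, Sars and Wars among the synthetases (0.21 to 0.29), Atf4 (0.42), Cebpb (2.36, a fold of 5.15) and Asns (1.40). Lower were Cars (-0.28), Atf5 (-0.66), Cebpg (-0.45), Sesn2 (-0.56) and Slc7a11. Slc7a11 had 12 to 72 counts in thymic WT and 0 to 2 counts in splenic WT libraries, so that its level in the spleen was below the detectable one. Markers of immature thymocytes summed to 40.0 to 172 CPM in thymic WT and 8.32 to 10.5 CPM in splenic WT mice. Their part in the difference of Slc7a11 was not tested. The synthetases had a median difference of 0.11 and the ATF4 genes of -0.25, the latter being the value of Ddit3 whatever the value of Slc7a11 below it. Age, mouse model and the date in the library names differ along with tissue here.

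Genes related to the members were counted in the same fits. Mars, Aimp1, Aimp2 and Eef1e1, the other parts of the multi-synthetase complex, had a median log2 fold change of -0.26 in the thymus and of -0.13 in the spleen. In the thymus 2 of 4 were lower at FDR < 0.05, against 10.9% of all genes. By edgeR 0 of these 4 passed FDR < 0.01 in either tissue. At an unadjusted p under 0.05, 3 were lower in the thymus and 1 in the spleen, against 18.5% and 13.6% of all genes. DESeq2 called 1 lower in the thymus, where it called 7.64% of all genes lower, and 0 in the spleen.

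The 17 mitochondrial synthetases, which charge tRNAs for the organelle, had a median log2 fold change of -0.05 in the thymus, with 12 of 17 below 0. By edgeR 0 were called there at FDR < 0.01, and 2 higher and 4 lower had an unadjusted p under 0.05, where 18.5% of all genes were lower. DESeq2 called 1 lower, against 7.64% of all genes. In the spleen the median was -0.14 and 3 were lower at FDR < 0.01, where 3.55% of all genes were, namely Tars2 (log2 fold change -0.34), Mars2 (-0.34) and Cars2 (-0.30). Mars2 also had a negative difference between tissues, at -0.53 with an adjusted p of 0.000563. No test compared the mitochondrial with the cytosolic list.

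Among 26 further ATF4 targets, 20 were tested in the thymus, with a median log2 fold change of -0.34. The 3 lower at FDR < 0.01, against 2.99% of all genes, were Ddit4, an inhibitor of mTORC1 (-0.68), Aldh18a1, of proline synthesis (-0.56), and Shmt2, of mitochondrial one-carbon metabolism (-0.52). In the spleen 17 were tested, with a median of 0.01, and calls went both ways, 3 higher and 5 lower against 5.90% and 3.55% of all genes. Slc1a4, a neutral amino acid transporter (1.47), Stc2, a secreted glycoprotein (1.29), and Psat1, of serine synthesis (0.48), rose. Ddit4 (-0.41), Slc7a5, a large neutral amino acid transporter (-0.41), Shmt2 (-0.32), Phgdh, the first enzyme of serine synthesis (-0.27), and Aldh18a1 (-0.21) fell, and these 5 were named after their values were seen. The difference between tissues passed for Slc1a4 (1.92) and Psat1 (1.23).

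The eIF2 kinases and the subunits and regulators of eIF2, 15 genes, had a thymic median of -0.13 and a splenic median of 0.01. By edgeR 0 passed FDR < 0.01 in either tissue or in their difference. At an unadjusted p under 0.05 by edgeR, 1 was higher and 6 were lower in the thymus, where 18.5% of all genes were lower. In the spleen 3 were higher and 1 was lower, against 16.4% and 13.6% of all genes. The difference was positive at that level for 3, against 17.4% of all genes. DESeq2 called 1 lower in the thymus, where it called 7.64% of all genes lower. It called 1 higher in the spleen, where it called 1315 of 17462 genes higher, and 0 differences. Genes of the XBP1 and ATF6 arms of the unfolded protein response, 16 in all, gave 1 higher and 4 lower thymic calls at FDR < 0.01, while splenic calls were 5 higher and 0 lower by edgeR, with 2 lower at an unadjusted p under 0.05 and 0 by DESeq2. Over all genes, 3.17% were higher and 2.99% lower in the thymus, and 5.90% were higher in the spleen, where 13.6% were lower at an unadjusted p under 0.05. In the thymus the co-chaperone Dnajb9 rose by 1.00 on the log2 scale, while Pdia4, a disulfide isomerase of the endoplasmic reticulum (-0.47), and Herpud1, which acts in degradation from that compartment (-0.47), fell. Xbp1 (-0.42) and the chaperone Calr (-0.36) also fell and were named after their values were seen. In the spleen the sensors Atf6 (0.54) and Ern1 (0.38) and the chaperone cofactor Sdf2l1 (0.38) rose, and so did Hspa5 (0.28) and Calr (0.25), again named after their values were seen. The difference between tissues passed for 7 of the 16 genes, against 4.50% of all genes, led by Sdf2l1 (1.10), Pdia4 (0.62) and Calr (0.62).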

How the data were processed

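RNA-seq libraries were prepared from sorted Foxp3+ Tregs with a KAPA kit that depletes ribosomal RNA. The values used are raw read counts per gene, deposited by the authors as 1 table of 18 libraries. The submitters' processing notes name STAR 2.5.0b and featureCounts 1.5.0, and the study's methods name GRCm38, GENCODE M13 and DESeq2. The strand setting of the counting is not given in the sources used here, so reads of overlapping genes cannot be separated. Symbols and coordinates came from GENCODE M21, which held 50376 of the 50600 identifiers, and promoter windows from RefSeq.

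Counts were analysed in R 4.3.3 with edgeR 4.0.16 (TMM scaling, filterByExpr, quasi-likelihood test), with Benjamini-Hochberg adjustment over all genes tested and a threshold of FDR < 0.01. Each tissue was fitted on its own, and the difference between tissues and the comparison of WT mice in 1 fit of all 18 mice. Adjusted p-values refer to this test. Intervals called 95% intervals are the log2 fold change with a normal multiplier of its SE. With so few mice they are narrower than the test implies. For thymic Atf5 the interval was -0.474 to -0.00478, while the unadjusted p by edgeR was 0.0678. The method was also run on simulated counts with means and spreads taken from these libraries, and the outcome is not given here. Means of gene lists per mouse used log2(CPM + 0.5). Each library is a separate mouse. Depth limits genes near 3 counts, and since the libraries carried no molecular identifiers this floor covers counting error only.

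The alternatives were RLE and upper-quartile scaling, other filters on low counts, FDR < 0.05, DESeq2 1.42.0, a fit of all 18 mice, the thymic replicate number as a block, removal of the GC trend of each library, thymic CD25 KO mice 2 and 4 left out together, and each mouse left out in turn.

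The genes and lists were chosen with earlier results of these data known. Values for each mouse are given for the 5 factors and for members past FDR < 0.01 in either tissue or in the difference, and up to 3 genes past FDR < 0.01 with the largest absolute log2 fold change per tissue are named from each related list.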

Additional observations from a re-analysis of the deposited data

Results flagged for a closer look

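Of 120 groups of 4 or 5 mice checked, 4 held a mouse far from the others of its group, and chance alone marks about 1 in 20 groups. Slc7a11 was at 3.29 CPM in thymic WT mouse 4 and at 0.555 to 0.680 CPM in the other thymic WT mice. Markers of immature thymocytes summed to 172 CPM in thymic WT mouse 4, against 40.0 to 73.7 CPM in the others. Among thymic CD25 KO mice, mouse 5 was highest in both, with markers at 98.2 CPM and Slc7a11 at 2.05 CPM. The part of such cells in the level of Slc7a11 was not tested. Cars was at 35.4 CPM in thymic WT mouse 2 and at 30.4 to 31.7 CPM in the others. Xpot was at 61.2 CPM in thymic WT mouse 3 and at 66.4 to 67.7 CPM in the others. Hars was at 30.0 CPM in thymic CD25 KO mouse 3 and at 34.6 to 36.4 CPM in the other thymic CD25 KO mice, and all 5 lay below the WT mice.

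The log2 fold change of CD25 KO against WT differed between spleen and thymus, by the test of the difference itself, for Cebpb (splenic minus thymic 1.03) and Aars (0.507). The call for Cebpb was kept in all 25 alternatives. The call for Aars was lost in 14 of 25, among them 13 of 18 fits without 1 mouse. Thymic CD25 KO and WT mice also differ in Foxp3 reporter allele and neonatal transfer. Mouse model, age and the date in the library names differ along with tissue and cannot be told apart from it.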

How the results depend on the processing

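Over the single genes and all alternatives, 2343 values kept their side of the threshold, and those below it stayed within their standard error, 48 came to pass it, 68 no longer passed it, 37 that passed it in neither case moved by more than their standard error, and 0 called values changed sign. The count of members lower in the thymus (2) was 16 at FDR < 0.05, 11 by DESeq2, 15 in the fit of all 18 mice, 8 without thymic CD25 KO mice 2 and 4, and 1 under RLE scaling, upper-quartile scaling, a minimum of 10 counts in every sample, the replicate block, and the replicate block with GC correction, and it was 1 to 4 with 1 mouse left out. Over all genes, 508 of 16986 were lower at FDR < 0.01, 1858 at FDR < 0.05 and 1246 of 16317 by DESeq2. In the fit of all 18 mice 1585 of 18686 were lower, and 1232 of 17433 without thymic CD25 KO mice 2 and 4. From RLE scaling to the block with GC correction, in the order above, 473, 440, 476, 158 and 162 were lower. With 1 mouse left out it was 183 to 516. The replicate numbers of thymic mice share only a number: same-numbered mice had correlations of deviations of 0.106, 0.0328, -0.0432, -0.182 and -0.0475, and 2 of 5 WT mice matched their own number best. With the replicate block, synthetases lower at FDR < 0.05 in the thymus numbered 7, and 5 with GC correction added, in place of 12, and ATF4 genes 2 in place of 4. Over all genes, those passing FDR < 0.05 in either direction numbered 2348 with the block and 1594 with GC correction added, in place of 3951. In the spleen the count of members higher (1) was 0 under upper-quartile scaling and the fit of all 18 mice and 0 to 1 with 1 mouse left out, and the count lower (0) was 0 to 1. Of all genes, 1031 were higher there, 920 under upper-quartile scaling and 424 in the fit of all 18 mice. With 1 mouse left out 689 to 1130 were higher and 410 to 605 lower, the latter in place of 620. Positive differences between tissues (2) numbered 7 at FDR < 0.05, 1 under upper-quartile scaling, 4 by DESeq2, 7 without thymic CD25 KO mice 2 and 4, and 1 to 3 with 1 mouse left out. Over all genes 840 of 18686 were positive, 1835 at FDR < 0.05, 616 under upper-quartile scaling and 1368 of 17234 by DESeq2. Without thymic CD25 KO mice 2 and 4, 1537 of 18972 were positive, and with 1 mouse left out 535 to 984. Members lower in splenic than thymic WT mice (5) numbered 3 to 5 with 1 mouse left out, where 3182 to 3951 of all genes were lower, in place of 3638. The median log2 fold change of the ATF4 genes in the thymus was -0.164 with GC correction and -0.168 with replicate block and GC correction. In the spleen it was 0.133 with no filter on low counts and -0.0153 to 0.0783 with 1 mouse left out. For the difference it was 0.364 under upper-quartile scaling and 0.346 with a minimum of 10 counts. Between WT mice it was -0.0662 with that minimum and -0.32 to -0.139 with 1 mouse left out. The minimum of 10 counts removes low genes from the list, and the cause of the other changes was not tested. Genes called in the thymus numbered 1047 by edgeR and 2763 by DESeq2. Depth limits Chac1, Nupr1 and, in the spleen, Slc7a11, which had too few counts for a test.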
